A study of Mus musculus with 24 samples.

Results

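A set of 8 genes known for their expression in fat cells, Adipoq, Lep, Retn, Cfd, Cidec, Plin1, Plin4 and Fabp4, was followed through 24 bulk RNA sequencing libraries of mouse kidney. They were taken by symbol from a list drawn up with earlier results of these libraries known, and all 8 were found among the 54532 gene identifiers of the files. The kidneys came from mice lacking Lrp2 in proximal tubule cells (KO, labelled PTC LRP2-SM22 -/-) and from wild-type littermates (WT, labelled +/+), with 6 KO and 6 WT libraries from mice fed Western diet for 2 weeks and as many of each for 12 weeks. Every mouse received this fat-rich feed, so no group on ordinary chow is included here. Lrp2 encodes megalin, the endocytic receptor that takes up filtered proteins in the proximal tubule. The series record names the proximal tubule as the site of the deletion, while the sources used here name neither the driver behind it, nor the meaning of SM22, nor the age of the mice. Nothing states that the libraries of a group are separate mice, so the p-values reflect the spread among these libraries, which may be technical. Whether fat around the kidney was trimmed before RNA extraction is not given either.

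Adipocytes store triglyceride in a large lipid droplet and secrete hormones into the blood. Adiponectin (Adipoq) and leptin (Lep) are made almost entirely by adipocytes, and resistin (Retn) and adipsin (Cfd, complement factor D) are secreted by mouse fat as well. Perilipin 1 (Plin1), perilipin 4 (Plin4) and Cidec coat or enlarge the lipid droplet, and Fabp4 carries fatty acids in the cytoplasm. Fabp4 is also a known gene of capillary endothelium, so it is not specific to fat. The nuclear receptor PPAR gamma and C/EBP factors are the textbook regulators of this programme in fat. White fat stores lipid, whereas brown fat, present at the hilum of the mouse kidney, burns it through the uncoupling protein Ucp1.

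Promoter sequence just before the RefSeq start (build GRCm38.p6) was available for 7 of the 8 genes, from 8 start sites, and 5 windows are shown: Adipoq, the members most like it across libraries (Cfd, Plin1 and Cidec, by the correlations given further on) and Lep, the member closest to the detection limit. Of the Cidec starts the downstream one is shown because it holds a match; the upstream one holds none. Each is the 250 bases before the start, 5′ to 3′ on the gene's strand. Capitals mark 8-letter matches to the C/EBP motif TTGCNNAA or 5-letter matches to CCAAT, on either strand; CCAAT reads ATTGG when it lies on the other strand.
Adipoq (chr16:23146286-23146535, + strand): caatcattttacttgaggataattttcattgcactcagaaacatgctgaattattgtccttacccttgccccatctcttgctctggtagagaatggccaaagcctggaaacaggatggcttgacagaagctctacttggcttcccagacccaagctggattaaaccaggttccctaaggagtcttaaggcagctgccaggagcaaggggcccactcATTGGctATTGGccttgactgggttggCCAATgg
Cfd (chr10:79890603-79890852, + strand, no match): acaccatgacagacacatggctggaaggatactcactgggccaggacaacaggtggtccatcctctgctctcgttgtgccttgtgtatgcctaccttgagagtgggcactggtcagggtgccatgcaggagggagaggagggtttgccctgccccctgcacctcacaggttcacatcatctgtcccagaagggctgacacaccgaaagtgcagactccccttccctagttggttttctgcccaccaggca
Cidec, the downstream of its starts (chr6:113434765-113435014, - strand): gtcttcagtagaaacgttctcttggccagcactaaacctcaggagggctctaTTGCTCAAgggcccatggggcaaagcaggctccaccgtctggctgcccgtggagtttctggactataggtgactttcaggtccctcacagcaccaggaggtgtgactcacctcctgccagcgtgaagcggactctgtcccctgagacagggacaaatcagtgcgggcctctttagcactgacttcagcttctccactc
Plin1 (chr7:79732777-79733026, - strand): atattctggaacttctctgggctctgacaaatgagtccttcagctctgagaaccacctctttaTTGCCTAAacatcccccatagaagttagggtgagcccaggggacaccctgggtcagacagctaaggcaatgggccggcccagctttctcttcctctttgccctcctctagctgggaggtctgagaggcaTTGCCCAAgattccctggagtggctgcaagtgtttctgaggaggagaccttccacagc
Lep (chr6:29059971-29060220, + strand): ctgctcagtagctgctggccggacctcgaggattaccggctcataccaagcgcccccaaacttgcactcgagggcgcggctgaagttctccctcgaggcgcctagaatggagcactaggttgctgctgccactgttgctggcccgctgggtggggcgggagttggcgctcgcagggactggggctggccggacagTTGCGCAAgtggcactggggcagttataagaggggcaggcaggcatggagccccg
A C/EBP match lay in a window of 3 of the 7 genes, namely Cidec, Plin1 (with a pair of matches) and Lep, against 9.56% of 32851 RefSeq promoter windows of mouse of the same length. CCAAT lay in 2 of the 7, Adipoq and Plin4, against 33.8% of windows. None of the 7 held the PPAR-type repeat (AGGNCA, any base, then AGGNCA again; 0.338% of windows on either strand), the half-site AGGTCA (14.0%) or, on the given strand, TATAAA (7.59%). These matches describe the letters only; binding was not measured.

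Levels are given as CPM, counts per megacount (M) of the library after TMM scaling, and each library held 11.3 to 34.1 M counts (16.3 to 25.2 in KO and 15.6 to 34.1 in WT at 2 weeks; 11.3 to 15.2 in KO and 11.4 to 14.5 in WT at 12 weeks). At that depth 3 counts, taken as the limit below which a gene counts as not detected, amount to 0.0832 to 0.304 CPM. Lrp2 followed the labels, with 185 to 389 CPM in KO and 1408 to 2501 CPM in WT at 12 weeks (log2 fold change -2.51, adjusted p = 3.95e-07). At 2 weeks Lrp2 fell by 2.49 on the log2 scale (adjusted p = 2.39e-06). Proximal tubule markers were abundant, their 10 genes summing to between 19654 and 44930 CPM in each library. Libraries that stood apart for the fat genes were KO replicate 4 and WT replicate 1 at 12 weeks and WT replicate 4 at 2 weeks.

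Across the 24 libraries the 8 genes were low (apart from Fabp4) and uneven, and most were highest in the same few libraries. After 12 weeks, 4 KO libraries (replicates 1, 2, 4 and 5) carried clear adipocyte transcripts, whereas KO replicates 3 and 6 and 5 of the 6 WT libraries were at or close to 0 for Adipoq and Plin1. Adipoq, Cidec, Cfd, Plin1 and Plin4 passed the test as higher in KO at 12 weeks, and none of the 7 tested genes passed at 2 weeks. In bulk samples such as these, fewer cells of a type and less RNA per cell cannot be told apart.

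**Figure D1:**
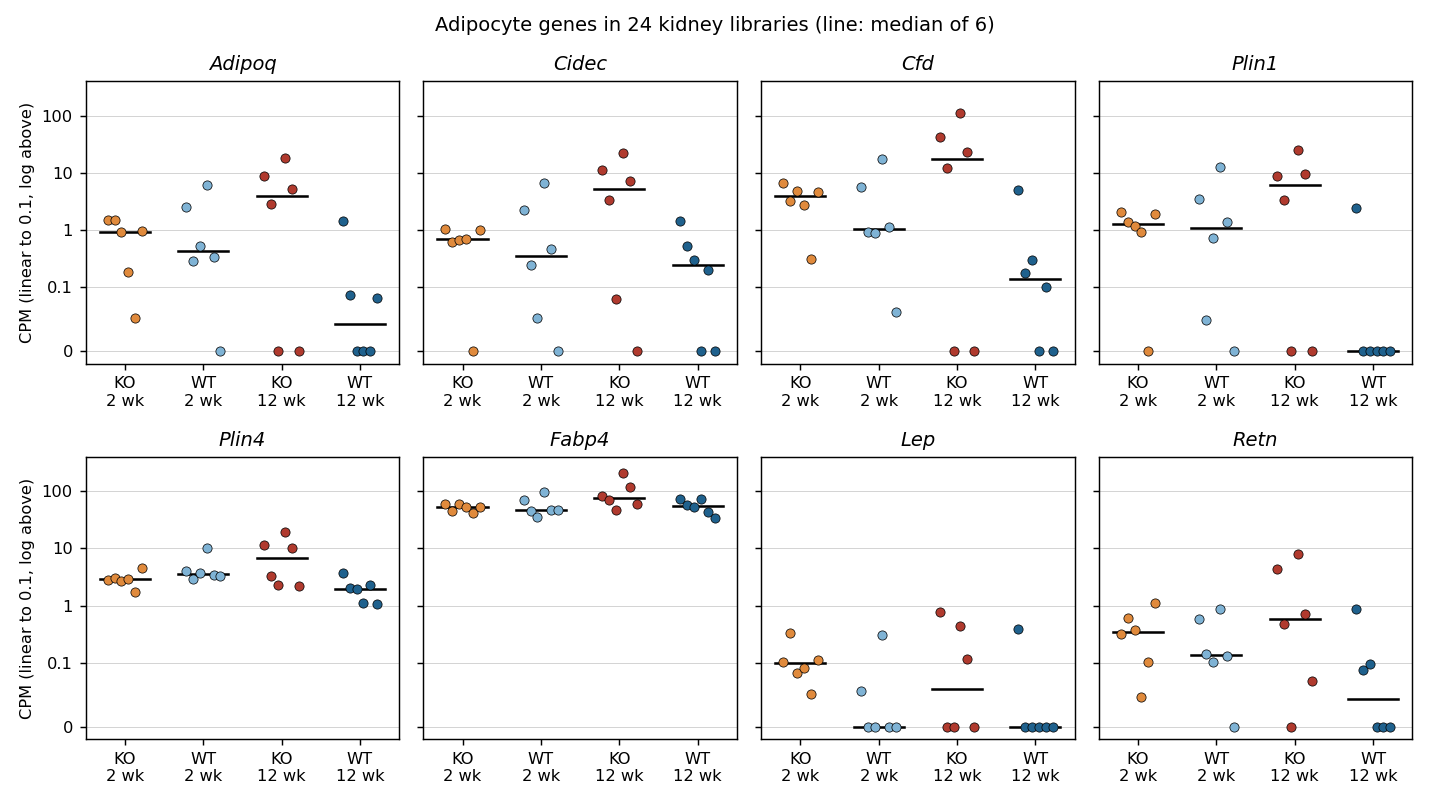
CPM of each of the 8 genes (y axis, linear below 0.1 and logarithmic above) in the 24 libraries, by group; points are libraries in replicate order and lines are medians of 6. At 12 weeks the KO points split into 4 high and 2 low for Adipoq, Cidec, Cfd and Plin1, while Fabp4 lies between 33.8 and 209 CPM throughout.

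Among the secreted hormones, Adipoq (ENSMUSG00000022878, chromosome 16, 23146536 to 23158028 on mm10) had a lowest, median and highest level of 0, 4.0 and 18.5 CPM in KO at 12 weeks, against 0, 0.0419 and 1.46 CPM in WT. The 4 high KO libraries lay above every WT library, but the groups overlapped because 2 KO libraries had 0 counts, as did 3 WT libraries. Adipoq was 21.8-fold higher in KO (log2 fold change 4.44, SE 1.42, edgeR quasi-likelihood adjusted p = 0.0295). Its 501 KO counts came mostly from replicate 4 with 252, and 15 of its 17 WT counts came from replicate 1. At 2 weeks Adipoq had 0.0517, 0.940 and 1.49 CPM in KO, against 0, 0.427 and 6.19 CPM in WT. The groups overlapped fully here, WT replicate 4 being the highest library of both, and the log2 fold change was -0.95 (SE 0.96, adjusted p = 0.506).

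Lep was the faintest of the 8, with 47 counts in all 24 libraries and 0 counts in 12 of them, and it was not tested because it missed the filter on low counts. It had 0, 0.0589 and 0.766 CPM in KO at 12 weeks, and all 4 WT counts at 12 weeks lay in replicate 1 (0.390 CPM). At 2 weeks every KO library had at least 1 Lep count (highest 6 counts, 0.339 CPM in replicate 2), whereas 4 of the 6 WT libraries had none. With at most 11 counts in a library, differences of Lep between groups were not detectable at this depth.

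Retn had 0, 0.594 and 8.0 CPM in KO at 12 weeks, against 0, 0.0443 and 0.878 CPM in WT. Only KO replicates 1 and 4 exceeded every WT library, and the groups overlapped. The log2 fold change of Retn was 3.67 (SE 1.36, adjusted p = 0.0515), just short of the threshold. At 2 weeks its median was 0.349 CPM in KO and 0.140 CPM in WT (log2 fold change 0.35, SE 0.70, adjusted p = 0.751), with overlapping groups.

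Cfd, the serine protease that cleaves complement factor B to start the alternative pathway, had 0, 17.6 and 113 CPM in KO at 12 weeks, against 0, 0.139 and 4.97 CPM in WT. Per kilobase of transcript its KO median of 19.1 CPM per kb was second only to Fabp4 among the 8. The same 4 KO libraries lay above every WT library and the same 2 KO libraries had 0 counts. Cfd was 35.7-fold higher in KO (log2 fold change 5.16, SE 1.59, adjusted p = 0.0268). At 2 weeks it had 0.310, 3.96 and 6.59 CPM in KO, against 0.0620, 1.03 and 17.2 CPM in WT, with overlap and a log2 fold change of -0.18 (SE 0.94, adjusted p = 0.914). Its median was higher in KO and its mean lower there (3.74 ± 2.15 CPM in KO and 4.29 ± 6.61 CPM in WT, SD, n = 6 each), since WT replicate 4 held 333 of the 587 WT counts.

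Of the lipid droplet proteins, Plin1, which guards the fat cell droplet from lipases, had 0, 6.07 and 24.6 CPM in KO at 12 weeks. In WT at 12 weeks all 25 Plin1 counts lay in replicate 1 (2.44 CPM), and the other 5 libraries had none. Plin1 was 19.5-fold higher in KO (log2 fold change 4.28, SE 1.51, adjusted p = 0.0451), with 4 of 6 KO libraries above every WT library. Without WT replicate 1 the WT group had no count at all, and Plin1 did not pass the test in that fit (adjusted p = 0.0665). At 2 weeks Plin1 had 0, 1.27 and 2.09 CPM in KO, against 0, 1.07 and 12.5 CPM in WT, groups that overlapped (log2 fold change -1.26, SE 1.07, adjusted p = 0.419).

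Cidec, which lets lipid pass between touching droplets, had 0, 5.30 and 22.3 CPM in KO at 12 weeks, against 0, 0.249 and 1.46 CPM in WT. Counts were present in 5 KO libraries and 4 WT libraries, and the 4 high KO libraries stood above all of WT. Cidec was 18.1-fold higher in KO (log2 fold change 4.18, SE 1.30, adjusted p = 0.0263). At 2 weeks its log2 fold change was -1.22 (SE 1.04, adjusted p = 0.416), with medians of 0.685 CPM in KO and 0.356 CPM in WT and overlapping groups.

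Plin4, a droplet coat protein found in fat and in muscle, was detected in all 24 libraries. It had 2.17, 6.72 and 19.1 CPM in KO at 12 weeks, against 1.09, 2.00 and 3.71 CPM in WT. KO replicates 1, 4 and 5 lay above every WT library, while the other 3 lay within the WT range. Plin4 was 4.04-fold higher in KO (log2 fold change 2.02, SE 0.58, adjusted p = 0.0159). At 2 weeks it had 1.71, 2.88 and 4.64 CPM in KO, against 2.97, 3.61 and 10.3 CPM in WT (log2 fold change -0.62, SE 0.30, adjusted p = 0.128). There 4 KO libraries lay below every WT library, yet the difference did not pass. Plin4 overlaps Hdgfl2 on the other strand, and no source used here says whether counting took account of strand, so its values are uncertain.

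Fabp4 was the most abundant of the 8 and never close to 0. It had 47.8, 75.4 and 209 CPM in KO at 12 weeks, against 33.8, 55.3 and 72.5 CPM in WT, with 3 KO libraries above every WT library. The log2 fold change was 0.85 (SE 0.36, adjusted p = 0.0878). At 2 weeks it had 41.4, 53.0 and 61.0 CPM in KO, against 35.9, 47.0 and 97.0 CPM in WT (log2 fold change -0.10, SE 0.23, adjusted p = 0.778). KO replicates 3 and 6 at 12 weeks, which had 0 Adipoq counts, were the 2 lowest KO libraries for Fabp4 with 47.8 and 58.7 CPM, and both lay within the WT range. Per kilobase of transcript its median was 84.2 CPM per kb in KO and 61.8 in WT at 12 weeks, whereas the medians of Adipoq were 3.09 and 0.0324 CPM per kb.

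**Figure D2:**
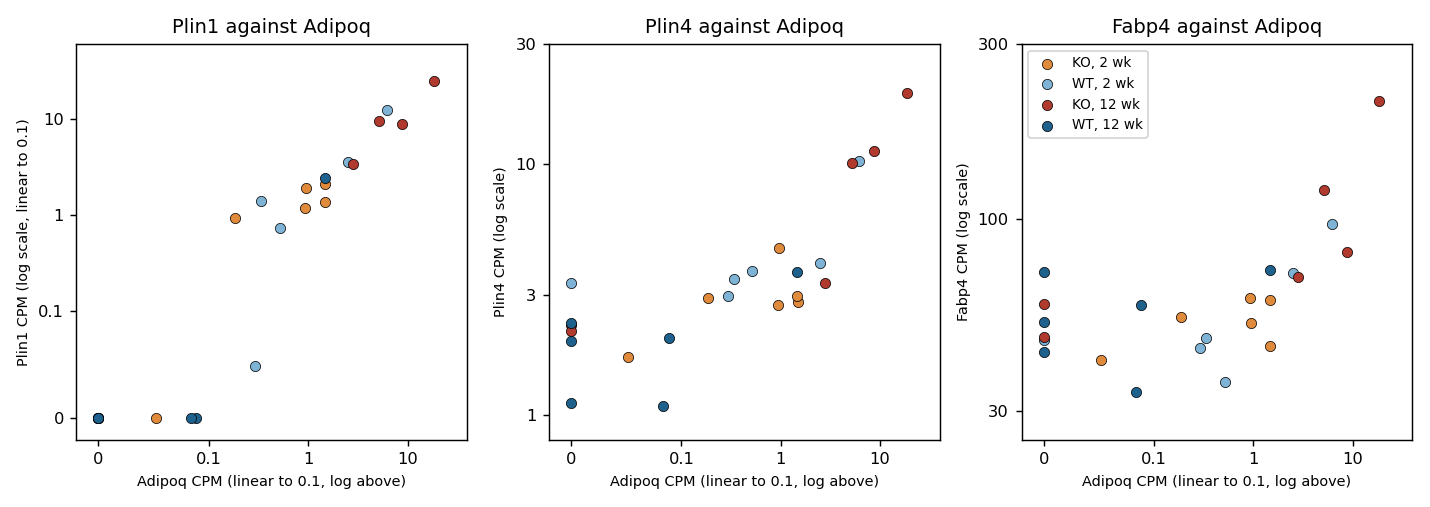
Plin1, Plin4 and Fabp4 (y axes, CPM) against Adipoq (x axis, CPM) in the 24 libraries, on logarithmic axes that are linear below 0.1 for Adipoq and Plin1; colours give the group. Plin1 tracks Adipoq down to 0, while Plin4 (lowest 1.09 CPM) and Fabp4 (lowest 33.8 CPM) keep a level in libraries where Adipoq is at 0.

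In the 12-week comparison 5 of the 7 tested genes passed as higher in KO and none as lower, where 20.7% of all 17286 tested genes passed as higher (38.5% in either direction, 17.7% as lower). Their median log2 fold change was 4.18, where the median of all tested genes was 0. In the 2-week comparison edgeR called 0 of 7, DESeq2 called 0 and 0 had an unadjusted p under 0.05, where 31.6% of all genes passed (18.2% as higher and 13.4% as lower in KO), and the median of the 7 was -0.62. Without WT replicate 4 the 2-week log2 fold change was 0.086 for Adipoq, 0.022 for Cidec, 1.05 for Cfd, 0.05 for Plin1 and 0.11 for Fabp4, all above 0 and none called, while Plin4 was at -0.22 and Retn at 0.86. No member separated KO from WT without overlap at either duration, where 18.4% of all tested genes did so at 12 weeks and 16.6% at 2 weeks.

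The 12-week calls rested on few libraries. DESeq2 called 4 of the 5, without Plin1. Without KO replicate 4, Plin4 was the single call left, and the log2 fold changes were 3.64 for Adipoq, 3.43 for Cidec, 4.11 for Cfd, 3.46 for Plin1 and 1.56 for Plin4. Without WT replicate 1, on the other hand, Adipoq, Cidec, Cfd, Plin4 and Retn were called and the fold changes grew, to 7.0 for Adipoq and 8.06 for Cfd on the log2 scale. Leaving out WT replicate 2, 3 or 4 left Cidec and Plin4, and leaving out WT replicate 5 or 6 left Plin4. Without KO replicate 1, 2 or 5 Plin1 was lost, without KO replicate 6 Retn was gained, and without KO replicate 3 all 7 were called. Plin4 was called in all 12 fits that left out a library, Cidec in 9, Adipoq and Cfd in 6 and Plin1 in 2. The direction was higher in KO in all of these fits.

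**Figure D3:**
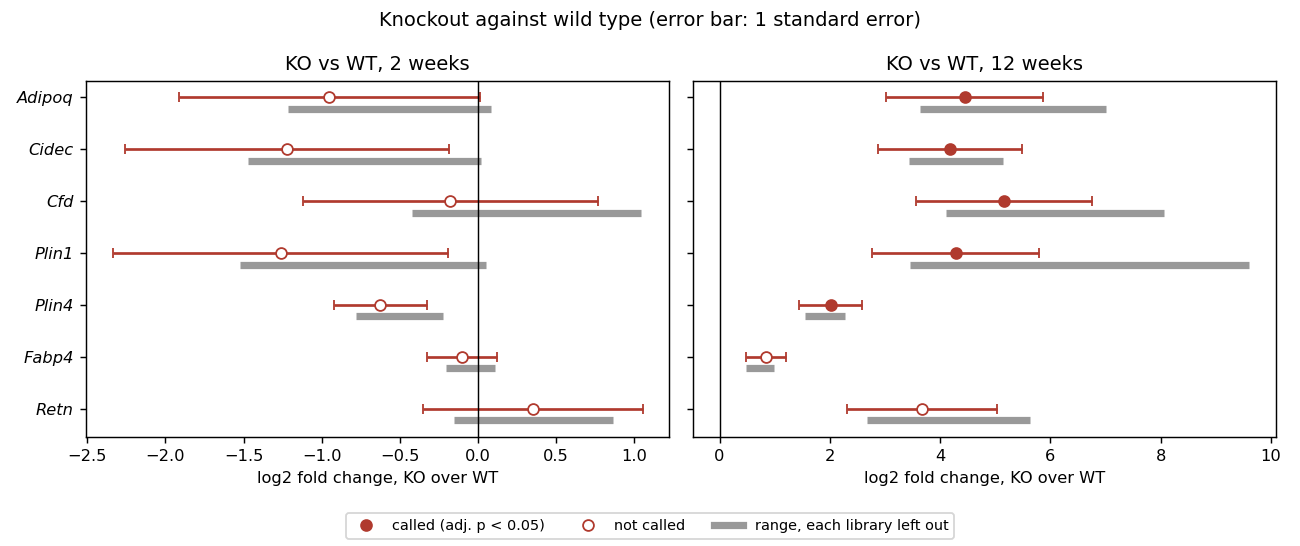
Log2 fold change of KO over WT (x axis; point, with 1 standard error) for the 7 tested genes at 2 weeks (left) and 12 weeks (right); filled points passed the test and grey bars span the values with each library left out. At 12 weeks all bars lie above 0, while at 2 weeks the bars of 6 genes reach across 0 and that of Plin4 does not.

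The difference of the genotype effect between durations was 5.40 for Adipoq, 5.41 for Cidec, 5.34 for Cfd, 5.55 for Plin1, 2.64 for Plin4, 0.95 for Fabp4 and 3.33 for Retn on the log2 scale (12 weeks minus 2 weeks). None passed (smallest adjusted p = 0.114, Plin4), in a test that called 0.174% of all genes (0.116% as higher, 0.0579% as lower). DESeq2 called 1, Plin4, and 6 of the 7 had an unadjusted p under 0.05. With 1 library left out that stood apart, the difference for Adipoq was 4.60 without KO replicate 4 of 12 weeks, 8.04 without WT replicate 1 of 12 weeks and 4.37 without WT replicate 4 of 2 weeks. For Cfd the same fits gave 4.30, 8.28 and 4.16, for Retn 2.33, 5.36 and 2.82, and for Fabp4 0.58, 1.06 and 0.74, and none of the 7 genes was called in any of the 3 fits. An effect that passed at 12 weeks and not at 2 weeks was therefore not shown to differ between them.

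Within KO, 12 weeks against 2 weeks, 5 of 7 genes passed as higher at 12 weeks, where 17.7% of all genes did so (33.8% in either direction, 16.1% as lower). These were Cidec (log2 fold change 3.43, adjusted p = 0.0212), Cfd (3.06, adjusted p = 0.0408), Plin4 (1.44, adjusted p = 0.0182), Fabp4 (0.90, adjusted p = 0.0281) and Retn (2.42, adjusted p = 0.0498). Adipoq at 2.78 (adjusted p = 0.0521) and Plin1 at 2.62 (adjusted p = 0.0914) did not pass. Without KO replicate 4 of 12 weeks none of the 7 passed, with log2 fold changes of 2.69 for Cidec, 2.04 for Cfd, 0.99 for Plin4, 0.53 for Fabp4, 1.42 for Retn, 1.98 for Adipoq and 1.80 for Plin1. Leaving out any single KO library of 2 weeks, or KO replicate 1 or 5 of 12 weeks, left 2 or 3 calls. Within WT, edgeR called 0 of 7, where 30.4% of all genes passed (15.8% as higher, 14.7% as lower). DESeq2 called 1, and 1 gene, Plin4, had an unadjusted p under 0.05 (log2 fold change -1.20, adjusted p = 0.0729). Plin4 was called as lower there without WT replicate 1, and also without KO replicate 4, of 12 weeks. All 7 WT values were below 0, from -2.94 for Plin1 to -0.05 for Fabp4. Without WT replicate 1 of 12 weeks Adipoq was at -5.27, Cfd at -5.23 and Retn at -2.95, and without WT replicate 4 of 2 weeks Adipoq was at -1.59, Cfd at -1.09, Cidec at -0.74 and Fabp4 at 0.17. The files of the 2 durations list their genes in different orders and differ in depth, so diet duration and library set cannot be told apart.

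The members also varied together within the groups. Likeness to Adipoq was measured as Pearson's r of log2 CPM after subtracting each group's mean, over the 24 libraries, which share library set and depth within a duration, and it is given as a description. Among 17285 genes Cfd ranked first (r = 0.966) and Plin1 next (r = 0.958), Cidec ranked 4 (r = 0.929), Retn 6 (r = 0.912), Plin4 12 (r = 0.833) and Fabp4 22 (r = 0.736). With KO replicates 1 and 4 of 12 weeks left out, the libraries farthest from the median, r was 0.953 for Cfd and 0.949 for Plin1. It was then 0.904 for Cidec, 0.90 for Retn, 0.764 for Plin4 and 0.698 for Fabp4 (rank 42). Ranked within a single duration, Plin4 was at 65 for 2 weeks and 10 for 12 weeks, and Fabp4 at 83 and 60. Of the 6 libraries highest in Adipoq, all 6 were also highest in Cidec and Plin1, 5 in Cfd and Plin4, and 4 in Fabp4, Lep and Retn.

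The 10 other genes most like Adipoq were Cidea (r = 0.930), Adrb3 (0.924), Apol6 (0.907), Adig (0.865), Ucp1 (0.856), Cox8b (0.852), Thrsp (0.848), Nat8l (0.829), Abcd2 (0.807) and Acaca (0.775). Cidea, Ucp1 and Cox8b are textbook genes of brown fat, Adrb3 encodes the beta-3 adrenergic receptor of white and brown fat, and Adig encodes adipogenin. Thrsp and Acaca act in fatty acid synthesis. At 12 weeks 6 of the 10 passed as higher in KO, where 20.7% of all tested genes did so. The 10 were picked from these same libraries for varying with Adipoq, so this count is not independent of the result for Adipoq. The 6 were Cidea (log2 fold change 4.56, adjusted p = 0.0193), Ucp1 (4.93, adjusted p = 0.0307), Cox8b (4.53, adjusted p = 0.00713), Adrb3 (4.14, adjusted p = 0.0207), Adig (3.70, adjusted p = 0.0215) and Abcd2, a peroxisomal fatty acid transporter (2.72, adjusted p = 0.00106). Ucp1 was not called when KO replicate 4 or any of 6 other libraries was left out. At 2 weeks Acaca alone of the 10 passed, as lower in KO (log2 fold change -0.32, adjusted p = 0.0155), where 13.4% of all tested genes passed as lower. The values of Cidea are uncertain too, as a gene lies opposite it.

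**Figure D4:**
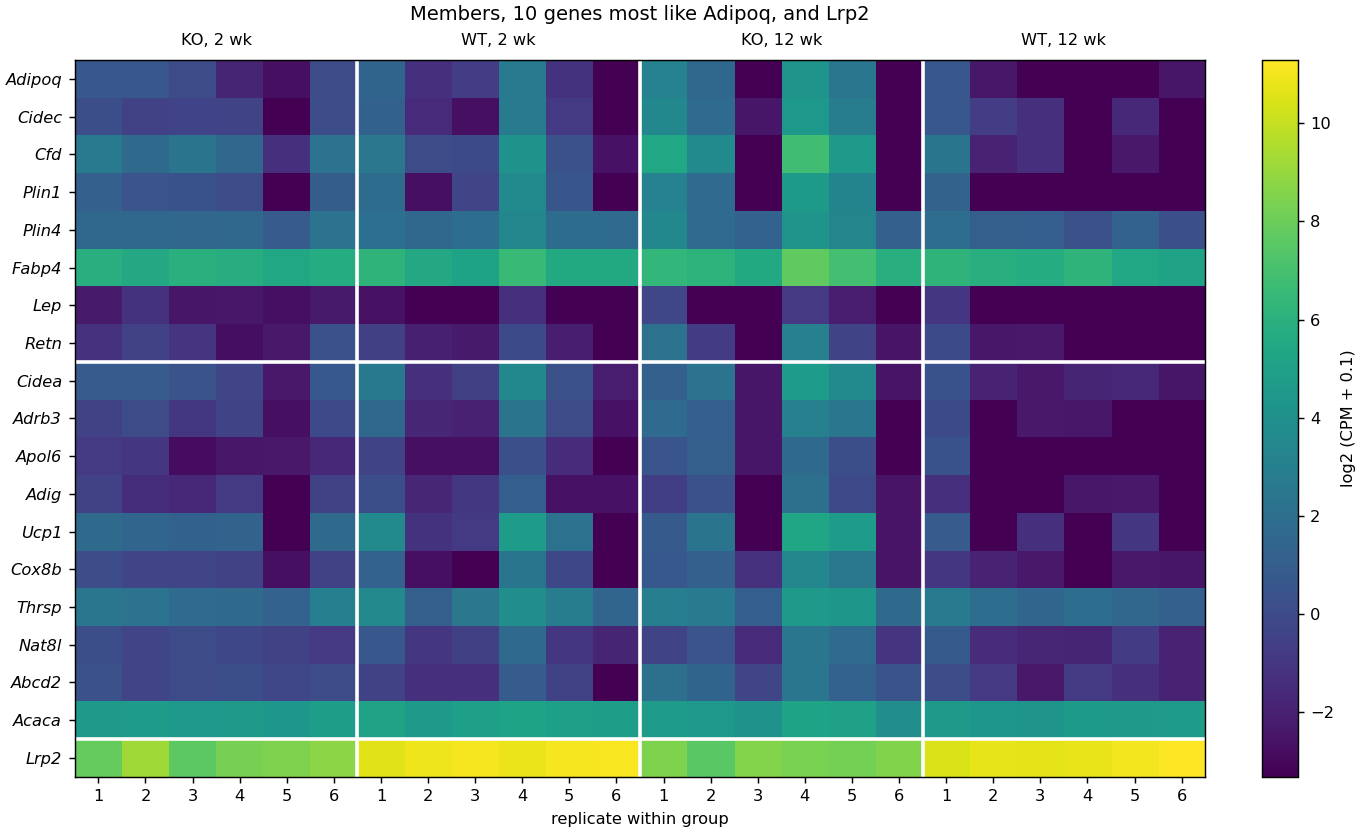
Log2 of CPM plus 0.1 (colour) for the 8 members, the 10 genes most like Adipoq and Lrp2 (rows) in the 24 libraries (columns, by group and replicate). The columns of KO replicates 1, 2, 4 and 5 at 12 weeks and of WT replicates 1 and 4 at 2 weeks are bright for the fat genes, and KO replicates 3 and 6 at 12 weeks are dark.

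Ratios to Adipoq varied between libraries, and their spans differed from gene to gene. In the 12 libraries with at least 10 Adipoq counts, Plin1 stayed between 0.923 and 2.02 counts per Adipoq count and Cfd between 1.70 and 6.10, spans of 2.18-fold and 3.59-fold. The spans were 6.98-fold for Plin4, 7.47-fold for Fabp4, 8.63-fold for Retn, 10.1-fold for the brown fat gene Cidea and 14.1-fold for Cidec, whose lowest ratio rests on 1 Cidec count to 10 Adipoq counts in WT replicate 3 at 2 weeks. Ucp1 ran from 0.190 in KO replicate 1 at 12 weeks (24 Ucp1 to 126 Adipoq counts, 95% interval 0.118 to 0.296) to 5.28 in KO replicate 5 at 12 weeks (465 to 88 counts, interval 4.2 to 6.71), a 27.7-fold span. The intervals are exact binomial ones and cover counting error only. In KO replicate 1 at 12 weeks Cidea was at 0.238 and Cox8b at 0.175 per Adipoq count, while Cidec was at 1.29 and Cfd at 4.79. Adrb3, of white and brown fat, spanned 3.93-fold over the 12 libraries. KO replicate 4, richest in Adipoq, had 2.07 Ucp1 counts per Adipoq count, and WT replicates 1 and 4 at 2 weeks had 4.90 and 4.14. Lep, a white fat hormone, was at 0.0873 per Adipoq count in KO replicate 1 and at 0.0227 in KO replicate 5, with overlapping intervals (0.0425 to 0.162 and 0.00271 to 0.0846). Ucp1 itself had 0, 3.29 and 38.2 CPM in KO at 12 weeks, against 0, 0.148 and 1.76 CPM in WT, and 0, 2.56 and 3.22 CPM in KO at 2 weeks, against 0, 2.48 and 25.6 CPM in WT. The groups overlapped at both durations.

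**Figure D5:**
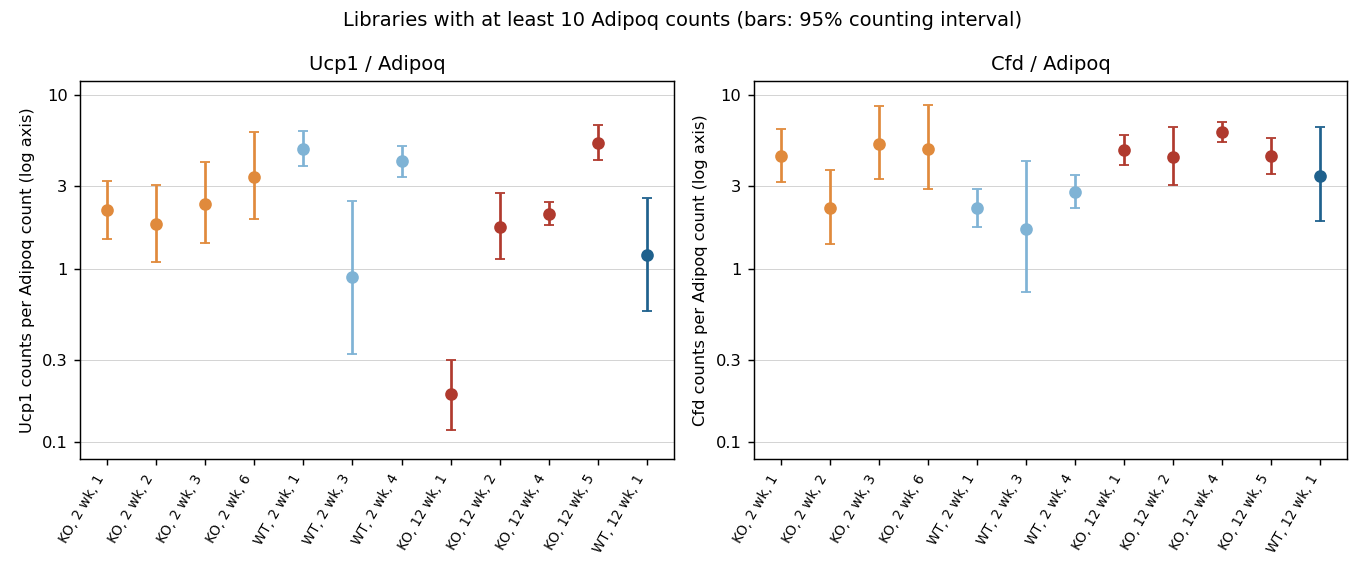
Counts of Ucp1 (left) and Cfd (right) per Adipoq count (y axis, logarithmic) in the 12 libraries with at least 10 Adipoq counts (x axis); bars are 95% exact binomial intervals. Ucp1 spans 0.190 to 5.28 and Cfd 1.70 to 6.10.

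Other gene lists, drawn up with results of these data known, give the setting. Beside their counts stand the shares over all tested genes, 20.7% as higher and 17.7% as lower in KO at 12 weeks. At 2 weeks these shares were 18.2% and 13.4%. Of 23 further adipocyte genes found, 20 were tested, and 3 passed as higher and 6 as lower in KO at 12 weeks, 0 and 7 at 2 weeks. The 3 higher at 12 weeks were Adrb3 (log2 fold change 4.14, adjusted p = 0.0207), Nnat (2.83, adjusted p = 0.013) and Lipe (0.46, adjusted p = 0.0221). Each of these 3 overlaps a gene on the other strand. Among the lower ones, Lpl, lipoprotein lipase, fell by 0.97 on the log2 scale at 12 weeks (adjusted p = 4.09e-05). Car3 fell by 1.42 at 2 weeks (adjusted p = 0.00052), and Pck1, a gluconeogenic enzyme of the proximal tubule, fell by 0.73 at 2 weeks (adjusted p = 0.00123). In the brown fat list 4 of 9 tested genes passed as higher and 2 as lower at 12 weeks, 1 and 3 at 2 weeks. The 2 lower at 12 weeks were Gk (log2 fold change -0.55, adjusted p = 0.00341) and Ppargc1a (-0.43, adjusted p = 0.0112). Dio2, which activates thyroid hormone, was 18.7-fold higher at 12 weeks (adjusted p = 0.00065). Dio2 was also the 1 gene higher at 2 weeks (4.22-fold, adjusted p = 0.0487), and it ranked 50 in likeness to Adipoq. The development genes Zic1 and Lhx8 of this list were at 0 counts in all 24 libraries. Of 12 lipid droplet genes used by many tissues, 0 passed as higher and 4 as lower at 12 weeks, 1 and 6 at 2 weeks. Among receptors of adipocyte hormones 3 of 6 passed as higher at 12 weeks and 2 at 2 weeks. They included Tlr4, listed here as a proposed resistin receptor (2.01-fold at 12 weeks, adjusted p = 0.000794). The leptin receptor Lepr passed at 12 weeks (2.08-fold, adjusted p = 0.00109). Adipor1, Adipor2 and Cdh13 of this list passed at neither duration. Their log2 fold changes were -0.15, -0.08 and -0.05 at 12 weeks, and -0.08, -0.14 and -0.30 at 2 weeks. Of the 6 genes of the alternative complement pathway, in which Cfd acts, 4 passed as higher at each duration and 1 as lower at 12 weeks. The lower one was Cfb, complement factor B, which Cfd cleaves (log2 fold change -0.59, adjusted p = 0.00121). Cfi, the factor that inactivates C3b, was 8.27-fold higher at 12 weeks (adjusted p = 4.86e-07).

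Markers of other cell types were measured beside the 8 genes. Of all tested genes, 20.7% passed as higher and 17.7% as lower in KO at 12 weeks, and 18.2% and 13.4% at 2 weeks. The 12 macrophage markers summed to 584 to 1260 CPM in KO and 128 to 358 CPM in WT at 12 weeks, and to 403 to 1031 CPM in KO and 132 to 180 CPM in WT at 2 weeks. Of these markers 11 of 11 tested genes passed as higher in KO at both durations. The 12 endothelial markers, which bear on Fabp4, summed to 593 to 948 CPM in KO and 719 to 1083 CPM in WT at 12 weeks, with 3 passing as lower and none as higher, and with 2 passing as lower at 2 weeks. In the list of fibroblast and fat precursor markers 4 of 9 tested genes passed as higher at 12 weeks, and at 2 weeks 4 did and 1 passed as lower. The adrenal enzymes Cyp11b1 and Cyp11b2 were at 0 in all libraries, and the sum of 8 adrenal cortex genes was 1.39 to 2.89 CPM in KO and 1.34 to 1.85 CPM in WT at 12 weeks. The 6 mesothelial genes summed to 59.5 to 101 CPM in KO and 127 to 155 CPM in WT at 12 weeks, and nearly all of the list's counts were Gpm6a (41575 over the 24 libraries, against 1154 for Upk3b and 246 for Msln), which fell by 0.79 on the log2 scale (adjusted p = 0.000123). Gpm6a is also a neuronal membrane protein. The mesothelial markers Msln (log2 fold change 1.43, adjusted p = 0.0643) and Upk3b (0.91, adjusted p = 0.238) did not pass there. Of 8 skeletal muscle genes 2 were tested, and Pvalb, which the distal tubule also expresses, passed as lower at both durations. Of 6 urothelial genes 2 passed as higher at 12 weeks, Krt20 (21.2-fold, adjusted p = 3.94e-06) and Krt5 (4.28-fold, adjusted p = 0.0227). Upk1a, Upk1b, Upk2 and Upk3a did not pass there (log2 fold changes 0.25, -0.16, 0.15 and 0.98). At 2 weeks 1 passed as higher, Krt20 (47.6-fold), and 1 as lower, Upk1a (log2 fold change -0.58). All 10 proximal tubule genes were tested, and 9 passed as lower at 12 weeks and 7 at 2 weeks. Both counts include Lrp2, the deleted gene, whose fall follows from the genotype and is no independent marker of the cell type. The part of these other cell types in the values of the 8 genes was not tested.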

How the data were processed

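The deposited files give the authors' raw counts for each Ensembl gene in 24 kidney libraries, not normalized. Per the labels' protocols, RNA came from a Maxwell RSC simplyRNA kit, and a NEBNext Ultra kit gave the libraries. Per the submitters' processing notes, the tools were fastp, STAR 2.5 and HTSeq 0.6.1, on mm10; strand handling and annotation release: not given in the sources used here. Groups were read from the sample titles. Identifiers were matched to GENCODE M21 (54495 of 54532 matched). The members and gene lists were chosen with earlier results of these data known; 141 of 142 list entries matched.

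Counts were filtered over all libraries with filterByExpr (at least 10 counts, total of 15), leaving 17286 genes, scaled by TMM and tested with edgeR 4.0.16 in R 4.3.3 (robust quasi-likelihood F test, two-sided; p adjusted by Benjamini-Hochberg over all tested genes, threshold 0.05). Genotype comparisons used the 12 libraries of a duration; the others used all 24. The standard error is the absolute log2 fold change over the square root of F. CPM used TMM factors over all 24, and likeness used a prior count of 2. Lengths are those of each gene's longest coding transcript. Promoter windows came from RefSeq, GRCm38.p6. Named besides the 8 members are Lrp2, Ucp1, the 10 genes most like Adipoq and, per list and genotype comparison, some of the up to 3 tested members with the smallest adjusted p, picked after their values were seen. Zic1, Lhx8, Cyp11b1 and Cyp11b2, at 0 throughout, were chosen after their values were seen. Lipe, Nnat, Ppargc1a and Cfb were named as well, as genes called at 12 weeks against the direction of others in their list. Adipor1, Cdh13 and Upk1b were named after their values were seen, as list members that did not pass. Other settings tried were upper-quartile or RLE scaling, DESeq2 1.42.0, a filter at a mean of 1 CPM or none, a replicate block, 1 fit of all 24 libraries, Adipoq as a covariate, each library left out, and for likeness Spearman's rho and leaving out 2 libraries. The fits were tested on simulated data. Library pairs within a group all differed by more than sampling noise. Figures were drawn with Python 3.11.15.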

Additional observations from a re-analysis of the deposited data

Results flagged for a closer look

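Within a group of 6 libraries, 13 of 32 combinations of gene and group had a single library set apart from the rest, judged by the gap to its nearest neighbour as a share of the group's range (above Dixon's 95% critical value). Chance gives about 1 in 20 such results only where values are normally distributed. The CPM of most of these genes are skewed, with libraries that hold no counts, so that rate cannot be assumed here. The 13 are therefore given as a description and not as a test. The 8 genes also share libraries, so these results are not independent. In WT at 12 weeks replicate 1 was the highest for Adipoq (gap share 0.939), Cidec (0.637), Cfd (0.941), Plin1 (1.0), Lep (1.0) and Retn (0.888). In WT at 2 weeks replicate 4 was the highest for Cidec (0.661), Cfd (0.68), Plin1 (0.716), Plin4 (0.857) and Lep (0.821). In KO at 12 weeks replicate 4 was the highest for Cfd (0.628). In KO at 2 weeks replicate 2 was the highest for Lep (0.791), which rests on 6 counts. Fabp4 was not set apart in this way in any of the 4 groups. The 12-week WT values of Adipoq, Cfd, Plin1, Lep and Retn thus rest mainly on replicate 1.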

How the results depend on the processing

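At 12 weeks the 7 tested genes stayed higher in KO under every alternative in which they were read. The fit with Adipoq as a covariate was read over all genes only, not for the members. Under RLE and upper-quartile scaling 5 were called, as under a mean of at least 1 CPM, which leaves out Retn. Retn and Fabp4 were called as well (7 in all) with all 24 libraries in 1 fit, and 6 genes were called with the replicate block. DESeq2 called 4 and no filter 1, Plin4. Without the filter 34329 genes were scaled, fitted and tested anew. The edgeR adjusted p was then 0.0662 for Adipoq, 0.0584 for Cidec and 0.051 for Cfd. Leaving out 1 library gave 1 to 7 calls at 12 weeks and 0 at 2 weeks, where no alternative read for the members called any. Over all genes the count at 12 weeks was 3708 with Adipoq as a covariate, against 6653 without it, with 3673 shared; at 2 weeks it was 5388 against 5467. Adipoq itself passed as higher in KO at 12 weeks (log2 fold change 4.44) and did not pass at 2 weeks (-0.95). At 12 weeks the covariate thus overlaps with genotype, and the cause of the lower count was not tested. The interaction count was 1 with DESeq2. For 12 against 2 weeks in KO the count was 3 with DESeq2, 2 with no filter, 1 with the replicate block and 0 to 6 with 1 library left out; in WT it was 1 with DESeq2 and 0 to 1 with 1 library left out.

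Directions turned when 1 library was left out. At 2 weeks the log2 fold change then ran from -1.21 to 0.086 for Adipoq, -1.47 to 0.022 for Cidec, -0.42 to 1.05 for Cfd, -1.52 to 0.05 for Plin1, -0.21 to 0.11 for Fabp4, -0.63 to 0.27 for Nat8l (all highest without WT replicate 4) and -0.15 (without KO replicate 6) to 0.86 for Retn. Cfd also turned without KO replicate 5 and with the replicate block (0.67). At 12 weeks Mylpf ran from -0.60 to 0.032 (without WT replicate 2). For 12 against 2 weeks in WT, Fabp4 ran from -0.16 to 0.17 (without WT replicate 4 of 2 weeks). None of these was called. Replicate numbers showed no clear pairing of the libraries over all genes. Over 36 same-numbered pairs the correlation of residuals ran from -0.281 to 0.171, with 4 over 0.1. Pairing that touches few genes would not show in this measure, so it was not excluded. The replicate block changed the counts over all genes to 5103 at 2 weeks and 5950 at 12 weeks. For 12 against 2 weeks in KO it left 1 member called, against 5 without it. Depth limits Lep, and any gene with a handful of counts per library.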
